A study of Mus musculus with 162 samples.

Results

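Kinesins are motor proteins that walk along microtubules, and 45 kinesin genes are described here in single neural cells of the mouse embryo. They were taken from the 22800 genes of the authors' normalized table by a rule on names, set with earlier results of these data known. The rule took 41 motor genes whose symbol starts with Kif or Kifc and a digit, and the 4 light chain genes Klc1, Klc2, Klc3 and Klc4. RNA was read from 162 cells at E17.5 to E18.5, each sample being the cytosol of 1 cell drawn into a patch-clamp pipette. The cells came from the Htr3a, Lhx6 and Nex Cre lines, in which Cre is named for a gene of interneurons (Htr3a and Lhx6) or of glutamatergic cortical neurons (Nex). No treatment, reporter or second allele is labelled, and all groups are embryos of the same age range.

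The submitters passed 148 cells and failed 14. The passed cells carry 9 type labels: 18 MGE-derived 1 cells (11 of the Htr3a and 7 of the Lhx6 line), 24 MGE-derived 2 cells (17 Htr3a, 7 Lhx6), 11 CGE-derived cells (all Htr3a), 4 cells labelled GABAergic (3 Htr3a, 1 Lhx6), 33 Glutamatergic 1 cells (23 Htr3a, 10 Nex), 13 Glutamatergic 2 cells (12 Htr3a, 1 Nex), 12 Cajal Retzius cells (all Htr3a), 11 VZ-derived cells (8 Htr3a, 1 Lhx6, 2 Nex) and 22 Undefined cells. The labels do not say which animal or litter a cell is from. Each group is therefore 1 sample: values carry their spread over cells, no difference was tested, and no p-value is given. Driver line, animals and any batch cannot be told apart.

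A kinesin-1 motor is built from heavy chains, which hold the motor, and light chains, which bind cargo. Kinesins of the 1, 2 and 3 families carry vesicles, organelles and protein complexes away from the cell body along axons, while kinesins of the 5, 6, 8, 10 and 12 families build and organise the mitotic spindle. Neurons that have left the cell cycle use mainly the transport kinds, and newborn cortical interneurons and glutamatergic neurons of this age are extending axons.

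Start site sequence separated the mitotic from the transport genes by a short motif, and the pieces shown are those that carry this difference. RefSeq promoters (GRCm38.p6, 250 bases before to 50 after a start site) were on hand for 36 of the 45 genes, as 40 promoters. The cell cycle homology region (CHR), an element known from genes switched on late in the cell cycle, was searched as TTTGAA on both strands. It occurred in 11 of 12 promoters of the dividing-cell kinesins (91.7%), in 1 of 18 promoters of the transport kinesins and light chains (5.56%), and in 17.9% of all 32851 promoters of this length. Kifc1 and Kifc5b, which are near-identical copies, are both counted among the 11. In 8 of the genes it began within 20 bases of the start site. For each of these genes 1 such site is shown 5′ to 3′ on the strand that reads TTTGAA, which is in capitals. Kif20b holds a second such site at 13, in lower case within the piece shown. Start site distances below are those of the motif's first base in the direction of the gene.
Kif11, chr19:37376353-37376378, -19: gcgcctcaatTTTGAAaaatggagac
Kif15, chr9:122951052-122951077, -19: tggccgcagaTTTGAAtttggcgccc
Kif22, chr7:127042422-127042447, -17: gcttctctctTTTGAAttaccggggc
Kifc1, chr17:33890617-33890642, 1: acccgccactTTTGAAtttcaacctc
Kif23, chr9:61946782-61946807, 2: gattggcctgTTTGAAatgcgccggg
Kif18b, chr11:102925106-102925131, 3: gaccggctagTTTGAAcgcgccgcgc
Kif20b, chr19:34922355-34922380, 7: gccgccattgTTTGAAtttgaaaacc
Kif4, chrX:100626074-100626099, 19: ctgggatcaaTTTGAAacttggcggt

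The CCAAT box (CCAAT, both strands) stood together with TTTGAA in 8 of 12 dividing-cell promoters and in 0 of 18 transport promoters, against 6.95% of all promoters. Kifc1 and its copy Kifc5b are both among these 8. The GC box (GGGCGG, both strands) leaned the other way, with 15 of 18 transport promoters, 6 of 12 dividing-cell promoters and 35.7% of all promoters; a GC box can overlap a reversed CCAAT box, as it does at Kif3a. The 150 bases before the start site are printed for Kif11, a spindle motor, and for 3 transport genes on which the results turn, in the direction of the gene and with any CHR, CCAAT or GC box letters in capitals, reversed boxes included. These letters are a description of sequence and show no binding.
Kif11, chr19:37376232-37376381, plus strand: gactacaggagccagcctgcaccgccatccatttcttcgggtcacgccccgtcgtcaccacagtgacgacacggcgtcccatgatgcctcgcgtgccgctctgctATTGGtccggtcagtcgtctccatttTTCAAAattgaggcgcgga
Kif21a, chr15:91049952-91050101, minus strand: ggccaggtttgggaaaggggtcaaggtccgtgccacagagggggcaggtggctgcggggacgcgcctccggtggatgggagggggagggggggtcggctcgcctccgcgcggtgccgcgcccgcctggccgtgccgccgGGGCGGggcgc
Kif3a, chr11:53567219-53567368, plus strand: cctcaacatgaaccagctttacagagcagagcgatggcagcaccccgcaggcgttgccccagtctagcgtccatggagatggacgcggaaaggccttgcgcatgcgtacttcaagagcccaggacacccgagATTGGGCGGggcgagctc
Kif5c, chr2:49619136-49619285, plus strand: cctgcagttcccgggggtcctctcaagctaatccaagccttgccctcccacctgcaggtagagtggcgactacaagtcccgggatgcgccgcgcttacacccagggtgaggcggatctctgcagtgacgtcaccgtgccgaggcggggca

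Passed cells held 1710224 to 24836041 counts in 2066 to 14810 genes (median 5363). A cell had counts of 2 to 42 kinesin genes (median 15), and this number moved with the number of genes read in the cell (Pearson r = 0.91 over 148 cells, a description in which both measures share the library). Levels are given in CPM, a gene's counts scaled to a total of 1000000 counts. All 6 GABAergic markers were at least 2-fold higher and all 6 glutamatergic markers lower in the GABAergic than in the glutamatergic class, and 5 of 6 MGE markers were higher and all 5 CGE markers lower in MGE-derived than in CGE-derived cells. The 6 Cajal Retzius markers summed to 4230 to 19626 CPM in the cells of that label. In the VZ-derived cells, which by name would come from the ventricular zone, the 8 markers of ventricular zone progenitors summed to a median of 0 CPM and none was read in 50% of the cells or more, while glutamatergic markers summed to a median of 1159 CPM (lowest 600.0), so the label is used only as a name. At least 3 microglial markers, each at 10 or more counts, were present in 27 of the 148 cells, spread over every label. Without these cells every count of kinesin genes past 2-fold stayed within 1.5 times its value, but its split into higher and lower turned for the driver lines of MGE-derived cells.

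Kinesin RNA was mostly that of transport motors. Together the 45 genes took 3265 CPM of all passed cells, from 2225 CPM in the 4 cells labelled GABAergic to 3885 CPM in Cajal Retzius cells. On the scale of CPM per kilobase of exon, the kinesin-1 light chain Klc1 stood first at 187, followed by the kinesin-2 motor Kif3a at 85.0, the kinesin-1 heavy chain Kif5c at 49.98, its relative Kif5a at 34.0, the kinesin-4 motor Kif21a at 31.6 and the synaptic vesicle precursor motor Kif1a at 31.2. Klc1 alone held 23.3% of all kinesin counts. At the other end, Kif2b was read in 2 cells, Kif12 in 5, and Kif18b and Kifc5b in 7 each.

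**Figure D1:**
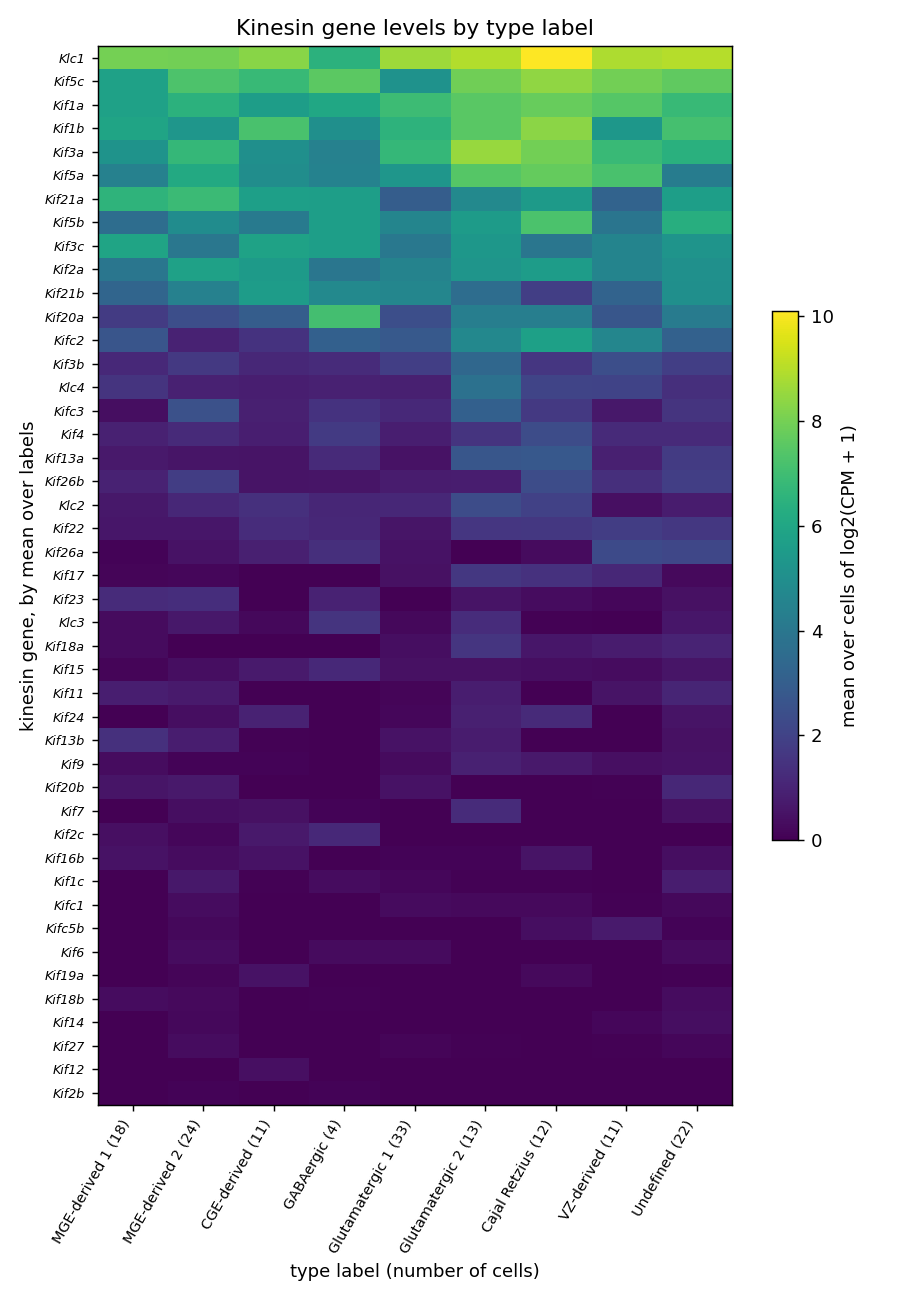
Mean over cells of log2(CPM + 1), by colour, of the 45 kinesin genes (rows, ordered by their mean over labels) in the 9 type labels (columns, with the number of cells). Klc1 is the brightest row in 8 of the labels and most genes of the lower part, among them the spindle motors, are near 0 in every label; levels are not divided by gene length.

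Kinesin-1 light chains were nearly all Klc1. In Cajal Retzius cells Klc1 was also steady from cell to cell, with a lowest cell at 801 CPM, a median of 1080.4 CPM and a highest of 1913 CPM in 12 cells. Every other label held at least 1 cell far below that range, such as Glutamatergic 1 (lowest 0, median 506, highest 3589 CPM) and MGE-derived 2 (lowest 0, median 575, highest 2000.1 CPM). The ranges overlap, and the medians of all labels but the 4 GABAergic cells (234 CPM) lay between 506 and 1080.4 CPM. On the log2(CPM + 1) scale the SD over cells was 0.37 in Cajal Retzius cells and 1.65 to 4.30 elsewhere. The other light chains were low: Klc2 was read in 83 of 148 cells at 6.80 CPM, Klc4 in 46 cells at 23 CPM and Klc3 in 32 cells at 2.71 CPM. Klc4 had its highest median in Glutamatergic 2 cells (23.5 CPM, 9 of 13 cells) and a median of 0 in MGE-derived 1, MGE-derived 2, CGE-derived, Glutamatergic 1, Cajal Retzius, VZ-derived and Undefined cells.

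The 3 kinesin-1 heavy chains are close relatives that pair with the same light chains; Kif5a and Kif5c are the neuronal forms and Kif5b the one most tissues use. Per length, Kif5c made up 47.8% of Kif5 RNA over all passed cells, Kif5a 32.5% and Kif5b 19.7%. The shares were not the same in each label. MGE-derived 1 cells held 44.0% Kif5a and 10.8% Kif5b, whereas CGE-derived cells held 17.8% Kif5a and 25.1% Kif5b, and Undefined cells 20.2% Kif5a and 31.8% Kif5b. MGE-derived 1 also held the cell with the highest Kif5a, at 2791 CPM against a median of 28.8 CPM; without it the summed Kif5a of the label was 132 CPM in place of 234 CPM.

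Kif5c itself was read in 127 of 148 cells. All 12 Cajal Retzius cells had it, from 111 to 663 CPM with a median of 370.3 CPM. In Glutamatergic 1 cells it was either absent or high: 13 of 33 cells had no count and the highest cell reached 1306 CPM (median 253 CPM). The ranges overlap, and what sets the labels apart is the number of cells at 0. All 3 heavy chains were present at 10 or more counts in 78 of 148 cells and none of them in 8, of which 5 were Glutamatergic 1 cells. Kif5a was read in all 12 Cajal Retzius, all 13 Glutamatergic 2 and all 11 VZ-derived cells, but in 10 of 18 MGE-derived 1 cells.

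**Figure D2:**
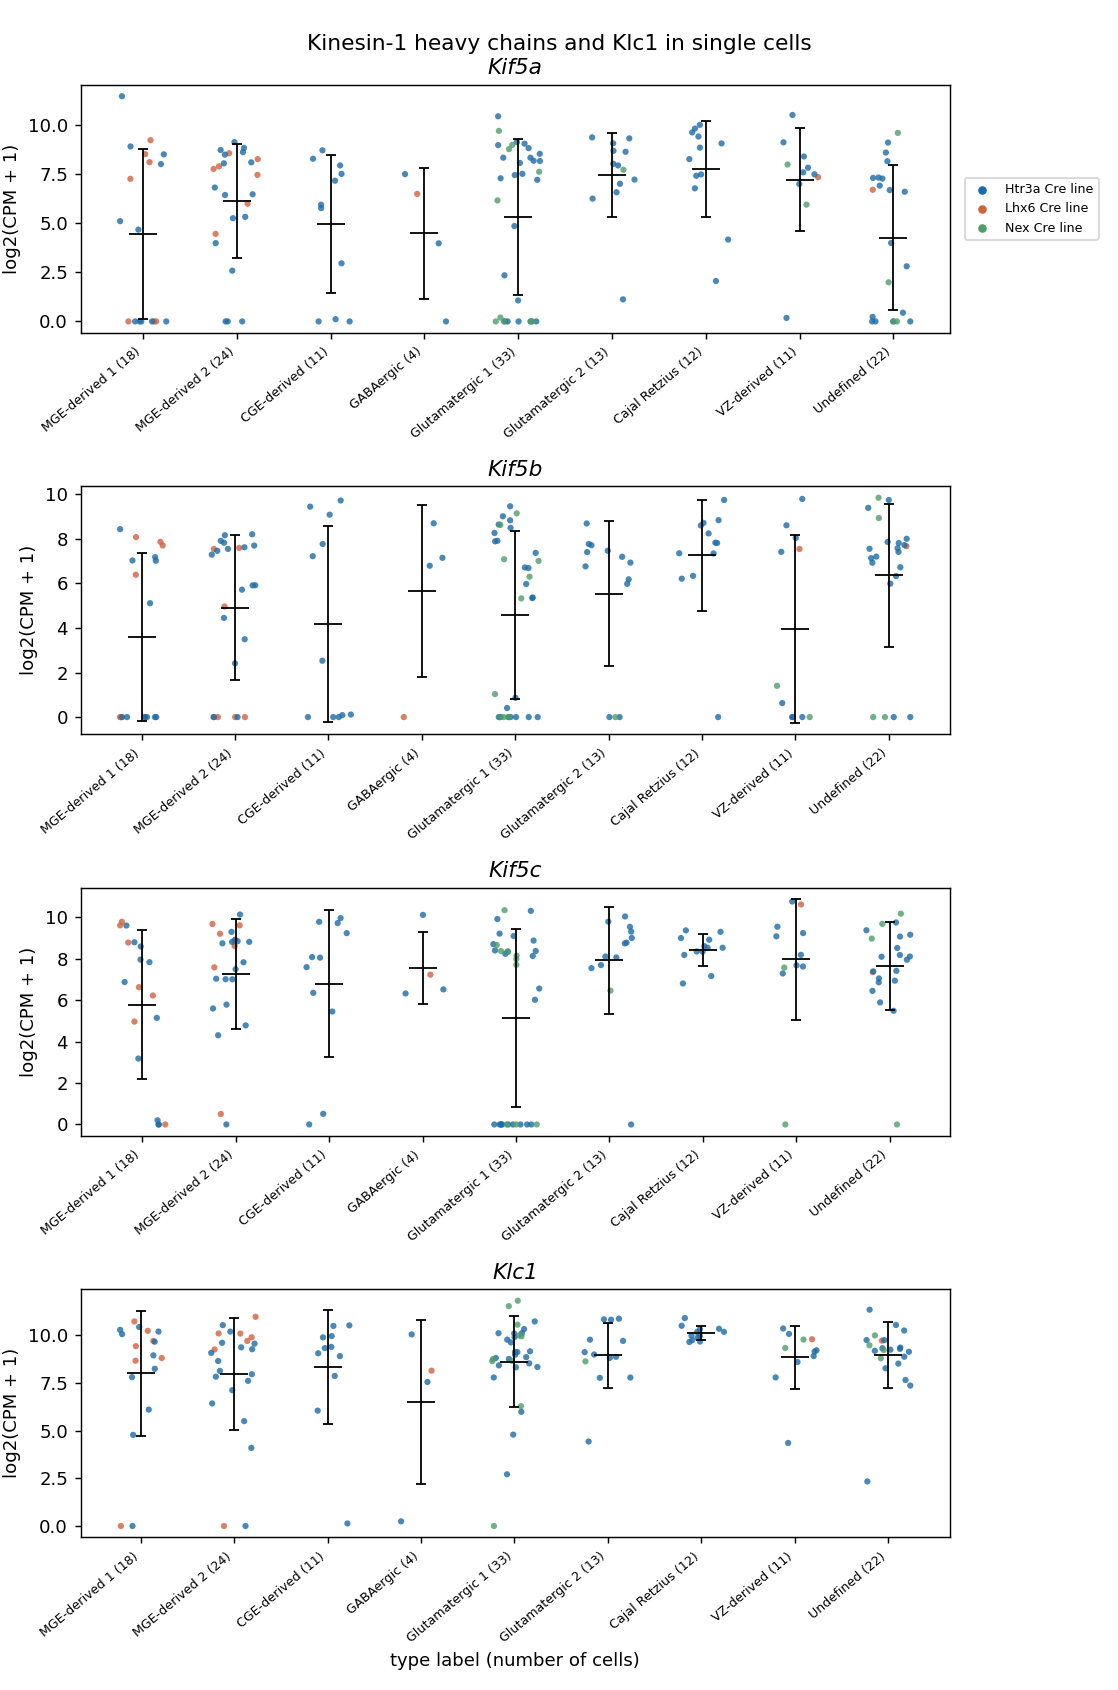
Each point is 1 cell, placed by type label (horizontal, with the number of cells) and log2(CPM + 1) (vertical) of Kif5a, Kif5b, Kif5c and Klc1; colours give the driver line, the bar the mean and the whiskers the SD over cells. Cajal Retzius cells form a tight group for Klc1 (801 to 1913 CPM) and Kif5c (111 to 663 CPM). For Klc1, read in 143 of 148 cells, every other label holds a cell far below that range. For Kif5c the Glutamatergic 1 label holds cells at 0 beside cells at high level.

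Kinesin-2 joins Kif3a with Kif3b or Kif3c and an adaptor encoded by Kifap3. Kif3a was read in 125 cells. Every Glutamatergic 2 cell had it at 166 CPM or more (median 396, highest 560.5 CPM), while the median was 65.7 CPM in MGE-derived 1 cells (0 to 1074 CPM) and 78.4 CPM in CGE-derived cells (0 to 1049 CPM). Of these labels Glutamatergic 2 had the highest median, though the ranges overlap. In MGE-derived cells the median of Kif3a differed by driver line and was higher in the Lhx6 line, as given below. Kif3a therefore also differed among cells of the same class, and the parts of class, line, animals and batch were not tested. Its partners were rarer, with Kif3c in 116 cells (15.5 CPM per kilobase, against 85.0 for Kif3a) and Kif3b in 56 cells (6.45). The dendritic kinesin-2 motor Kif17 was read in 21 cells.

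Kinesin-3 was represented by Kif1a and Kif1b, which carry synaptic vesicle precursors and mitochondria. They were read in 131 and 133 of 148 cells. Kif1b had its highest median in Cajal Retzius cells (67.4 lowest, 415 median, 713 highest CPM) and a median of 50.1 CPM in VZ-derived cells (0 to 506 CPM). Kif1a had medians from 90.2 CPM in CGE-derived cells (0 to 513 CPM) to 353 CPM in Cajal Retzius cells (0 to 493 CPM), and the ranges of all labels overlap. The remaining kinesin-3 genes were sparse: Kif13a in 44 cells, Kif13b in 22, Kif1c in 18, Kif16b in 14 and Kif14 in 9.

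Kif21a and Kif21b are related kinesin-4 motors that slow or pause microtubule growth. They did not follow each other in these cells, which was not particular to this pair, as given below. Kif21a (chr15:90933276-91049948, minus strand, GRCm38) had a median of 249 CPM in MGE-derived 1 cells (0 to 1698 CPM), 216 CPM in MGE-derived 2 cells (0 to 2052 CPM), 133 CPM in CGE-derived cells (0 to 1134 CPM) and 189 CPM in the 4 GABAergic cells (0 to 399 CPM). The medians were lower in Glutamatergic 1 cells (1.22 CPM, range 0 to 1251 CPM), Glutamatergic 2 cells (69.6 CPM, 0 to 442 CPM), VZ-derived cells (9.48 CPM, 0 to 252 CPM) and Cajal Retzius cells (124 CPM, 0 to 258 CPM). Every range starts at 0, so the labels differ in how many cells are high and not by separate ranges.

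Kif21b had another order. Its median was highest in CGE-derived cells at 144 CPM (0 to 929.8 CPM) and lowest in Cajal Retzius cells at 0.740 CPM, where no cell passed 57.8 CPM. Between these lay the Undefined cells at 87.9 CPM, Glutamatergic 1 at 67.8 CPM, GABAergic at 56.4 CPM, MGE-derived 2 at 41.2 CPM, Glutamatergic 2 at 21.5 CPM, MGE-derived 1 at 5.71 CPM and VZ-derived at 4.11 CPM, neighbours that do not differ beyond their spread over cells. Over the 148 cells the 2 genes had a Pearson r of 0.00 on the log2(CPM + 1) scale, given as a description. Low values were common among the kinesin pairs compared in this way. The r was 0.10 for Kif3a and Kif3c, 0.11 for Kif5a and Kif5b, and highest, at 0.35, for Klc1 and Kif3a. Kif21a stood above Kif21b in 80 cells and below it in 60.

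**Figure D3:**
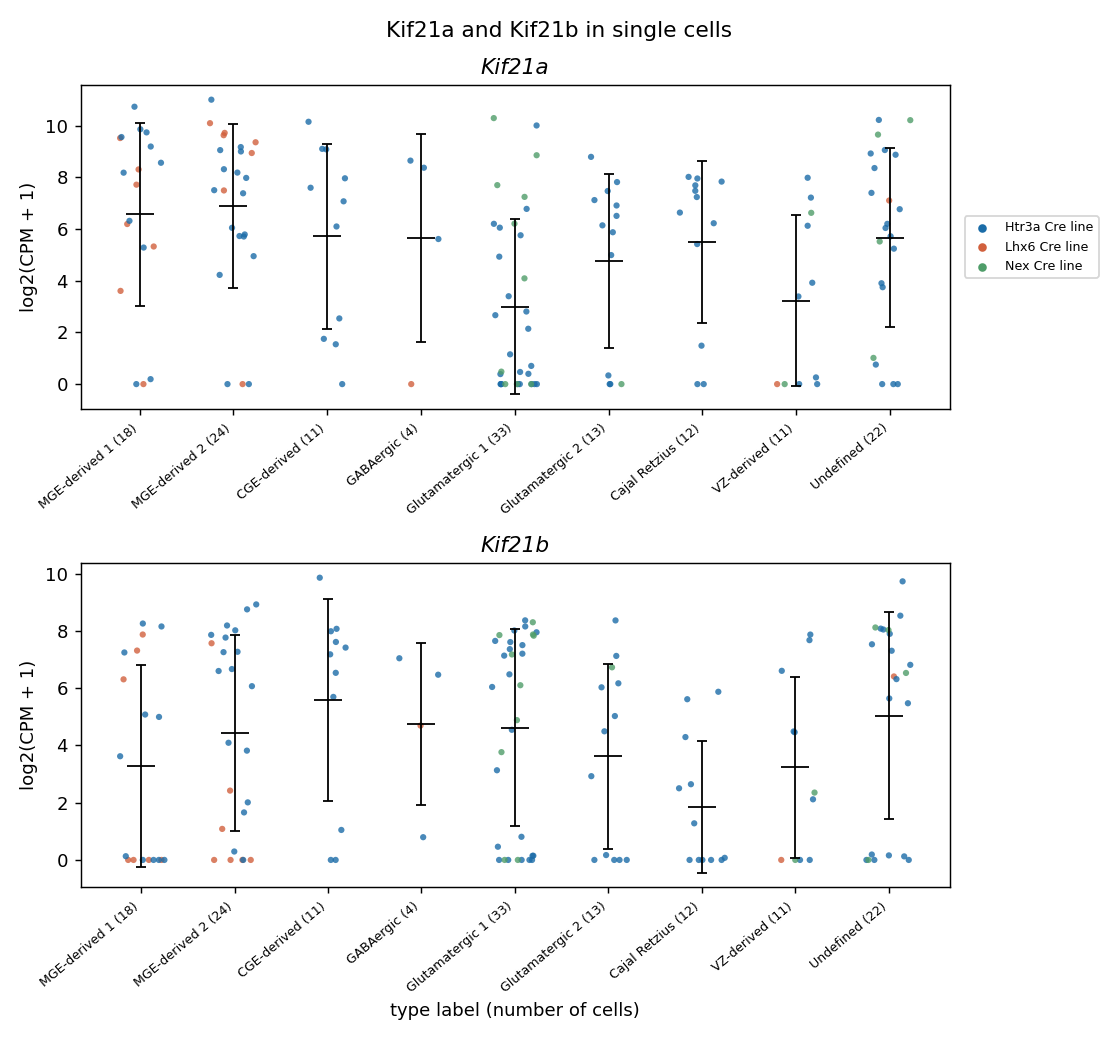
Each point is 1 cell, by type label (horizontal, with the number of cells) and log2(CPM + 1) (vertical) of Kif21a above and Kif21b below; colours give the driver line, the bar the mean and the whiskers the SD over cells. For Kif21a the Glutamatergic 1 cells gather near 0 (median 1.22 CPM) while the MGE-derived cells are mostly high; for Kif21b the Cajal Retzius cells are the low ones (median 0.740 CPM).

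Kif2a, a kinesin-13 that takes microtubules apart and trims axon branches, was read in 122 cells with medians from 22.1 CPM in MGE-derived 1 cells (0 to 829 CPM) to 160.3 CPM in CGE-derived cells (0 to 746 CPM). Of the minus-end directed kinesin-14 genes, Kifc2 was read in 80 cells and Kifc3 in 56, while the mitotic Kifc1 and its near-identical copy Kifc5b were read in 11 and 7 cells. Reads may have been split between the last pair. Kifc2 had a median of 75.4 CPM in Cajal Retzius, 59.4 CPM in Glutamatergic 2 and 59.0 CPM in VZ-derived cells, and of 0 in MGE-derived 1, MGE-derived 2, CGE-derived and Glutamatergic 1 cells.

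Of the 13 kinesins of dividing cells, Kif20a and Kif4 were by far the most often read, in 88 and 58 of 148 cells. Both overlap a gene on the other strand. Kif20a shares 1271 exon bases (29.3% of its exons) with Cdc23, a subunit of the anaphase promoting complex, and Kif4 shares 832 bases (15.1%) with Pdzd11. Of the 88 cells with Kif20a, 85 also had Cdc23, with 14 further cells having Cdc23 alone, and of the 58 cells with Kif4, 56 also had Pdzd11. Across 148 cells the levels of each pair went together with a Pearson r of 0.92 for Kif20a and Cdc23 and 0.89 for Kif4 and Pdzd11, on the log2(CPM + 1) scale, as a description. The strand setting of the counting is not given in the sources used here, so reads of the 2 genes of a pair cannot be told apart, and the values of Kif20a and Kif4 are uncertain throughout. Klc3, which shares 28.1% of its exons with Ercc2 (r = 0.80), is in the same position. Kif2a shares 19.2% of its exons with Dimt1, with a lower r of 0.31, and 51 cells had Kif2a without Dimt1.

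**Figure D4:**
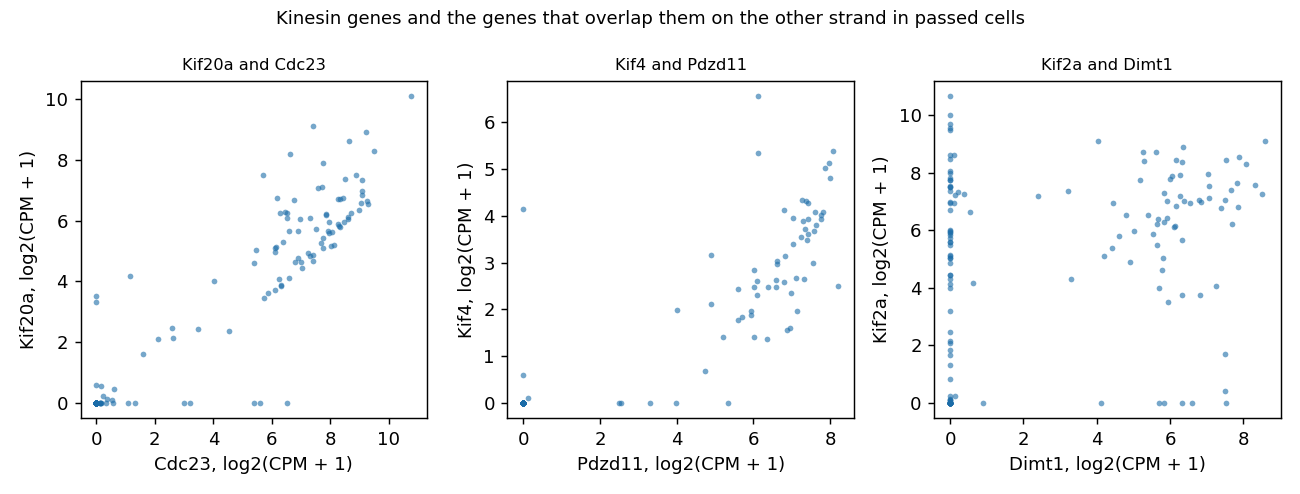
Each point is 1 of 148 passed cells, placed by log2(CPM + 1) of the gene on the other strand (horizontal) and of the kinesin gene (vertical), for Kif20a with Cdc23, Kif4 with Pdzd11 and Kif2a with Dimt1. The first 2 pairs lie along a line (r = 0.92 and 0.89), while many cells with Kif2a have no Dimt1 (r = 0.31).

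Leaving Kif20a and Kif4 aside, few cells held a mitotic set. At least 1 of the remaining genes reached 10 counts in 78 of 148 cells, but 3 or more did so in 13 cells, of which 6 were Undefined, 2 MGE-derived 2 and 1 each MGE-derived 1, GABAergic, Glutamatergic 1, Glutamatergic 2 and VZ-derived. Of these 13 cells 11 were among the 27 of 148 with microglial markers, and the part of that RNA was not tested. All but Glutamatergic 1 cell 7 (3472 genes) held 7170 to 14810 genes, beside a median of 5363 in passed cells. The part of the number of genes read was not tested either. The spindle motor Kif11 was read in 22 cells and the chromosome motor Kif22 in 38. In VZ-derived cells Kif22 was read in 4 of 11 cells (highest 114 CPM) and Kif11 in 3 of 11 (highest 4.74 CPM), and the 14 markers of dividing cells summed to a median of 7.40 CPM. Cajal Retzius cells stood out by that marker sum, with a median of 620.5 CPM (217 to 2282 CPM). By summed counts 613 of their 808 CPM were Cenpf, which encodes a protein of kinetochores and microtubules. Cenpf was read in 11 of 12 of these cells at a median of 489 CPM, and in 1 of 33 Glutamatergic 1 and 2 of 13 Glutamatergic 2 cells. Kif11 was read in 1 of the 12.

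In each comparison a gene was taken as measured if 10% or more of the cells of 1 of the groups had it, and called where the means of log2(CPM + 1) differed by 1 or more, which is 2-fold on that scale and understates the change of low genes. These calls describe the cells sequenced, and the average of logs gives each cell the same weight, also a cell with no count. By summed counts, where cells of high level weigh most, 13 of the 51 calls of genes named below were kept and 38 were not, so the lost ones are given with that value. Shares of kinesin genes called lay near the share of all genes in most comparisons, so the family as a whole gives no result, and single members are described.

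The first comparison asked how GABAergic cells (57 cells of the MGE-derived 1, MGE-derived 2, CGE-derived and GABAergic labels) differ from glutamatergic cells (46 cells of both Glutamatergic labels). Kif21a was the member that differed most. It was read in 50 of 57 GABAergic cells at a median of 193 CPM and in 32 of 46 glutamatergic cells at a median of 5.67 CPM, with means of log2(CPM + 1) of 6.47 ± 3.37 (SD, n = 57 cells) and 3.49 ± 3.45 (SD, n = 46 cells). The difference of 2.98 was less than the SD over cells in either class, and placed Kif21a at rank 33 of 13139 measured genes from the highest. By summed counts Kif21a was 3.26-fold higher. The difference was 3.20 among cells of the Htr3a line alone.

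Lower in GABAergic cells were the kinesin-14 Kifc2 (difference -1.62), Kif3a (-1.50) and Kif1a (-1.05). Kif3a had a median of 182 CPM in GABAergic and 341 CPM in glutamatergic cells. By summed counts none of the 3 was past 2-fold, with log2 ratios of -0.99, -0.76 and -0.65. Among cells of the Htr3a line the difference of Kif3a was -2.56 and that of Kif1a -0.88, no longer past 2-fold. The median of Kif3a in MGE-derived cells of the Lhx6 line, given below, was above that of the glutamatergic cells. In all, 1 of 36 measured kinesin genes was higher and 3 were lower, where 6.07% of all genes were higher and 9.74% lower. By summed counts the balance was the other way, 8 higher and 5 lower, beside 15.8% and 15.3% of all genes. The kinesins' median difference was -0.07, beside -0.02 over all genes. Kif21b had a difference of -0.03, and of 0.99 among Htr3a line cells.

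Partners of kinesins and the other microtubule genes were read from lists. Their counts called stand beside the same 6.07% higher and 9.74% lower of all genes. Of 17 adaptors, 3 (17.6%) were lower in GABAergic cells and 0 higher, near the 15.8% of all genes called in either direction: Sybu (syntabulin, which links kinesin-1 to syntaxin vesicles and mitochondria), Rhot1 and Syt11. Sybu was 5.60 lower, from a median of 391 CPM in Glutamatergic 1 and 305 CPM in Glutamatergic 2 cells to 0 in MGE-derived 1, MGE-derived 2 and CGE-derived cells. In Cajal Retzius cells the median of Sybu was 0.151 CPM and the highest cell reached 85.1 CPM, so there too it was below the glutamatergic cells (difference -5.50). Of 27 dynein and dynactin genes, which serve transport toward the cell body, 2 were higher and 6 lower, and 0 and 3 by summed counts; the dynein intermediate chain Dync1i1 differed most at -3.53. Of 17 measured microtubule-associated proteins, 3 were higher (Dclk2, Dcx and Map4) and 2 lower (Stmn4 and Map6), and 1 and 3 by summed counts.

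Within the GABAergic class, MGE-derived cells (42) were set against CGE-derived cells (11, all of the Htr3a line). Kif3a (difference 1.05), Kif21a (1.03) and, among sparsely read genes, Kif23 and Kif13b were higher, while Kif21b (-1.65), Kif1b (-1.64) and Kif3c (-1.01) were lower. Kif1b had a median of 91.0 CPM in MGE-derived and 209.7 CPM in CGE-derived cells. That is 4 higher and 3 lower of 32 measured, against 17.4% and 10.8% of all genes. Within the Htr3a line alone Kif21b (-0.84), Kif21a (0.98), Kif3a (0.19) and Kif3c (-0.20) were not past 2-fold, and Kif1b was (-1.46). By summed counts none of these 5 genes was, with log2 ratios of -0.79 for Kif21b, 0.62 for Kif21a, 0.63 for Kif3a, -0.61 for Kif3c and -0.44 for Kif1b. Of 9 microglial markers 3 were higher in MGE-derived cells, and their part was not tested.

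MGE-derived 1 cells (18) had fewer genes read than MGE-derived 2 cells (24), with medians of 4563 and 5493.5 genes, and over all genes 2.61% were higher and 22.6% lower. Kinesins followed this with 2 of 39 higher and 7 lower, at a median of -0.32 beside -0.39 over all genes. In MGE-derived 1 cells 5 of 9 microglial markers were lower and 2 of 4 erythrocyte markers higher. Without the cells with microglial markers 4 of 28 kinesins were higher and 5 lower. The share of all genes in that subset is not given here, so this split is not read as a result about kinesins. Kif3c went the other way: it was read in 17 of 18 MGE-derived 1 cells (median 106 CPM) and in 15 of 24 MGE-derived 2 cells (median 32.6 CPM), a difference of 1.89, which was 0.75 within the Htr3a line and 0.12 by summed counts. Kifc3 was the lowest, read in 2 of 18 against 13 of 24 cells (-2.13), followed by Kif2a (-1.83), Kif5a (-1.70), Kif3a (-1.52), Kif5c (-1.48) and Kif5b (-1.30). By summed counts Kifc3 alone of these 7 genes was past 2-fold (-4.11): Kif2a was at -0.07, Kif5c at -0.51 and Kif5b at -0.69, and Kif5a and Kif3a were on the other side of 0 (0.20 and 0.35).

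The same was seen, more strongly, between Glutamatergic 1 cells (33) and Glutamatergic 2 cells (13), whose median numbers of genes were 4954 and 7585. Of 35 measured kinesins 1 was higher and 17 lower, against 1.19% and 48.7% of all genes, and the kinesins' median of -0.95 was that of all genes (-0.97). By summed counts the medians were -0.41 for kinesins and -0.07 for all genes. Klc4 (-2.91), Kif5c (-2.79), Kif13a (-2.24), Kif5a (-2.14) and Kifc3 (-1.95) differed most among the lower ones, and Kif21b was the higher one (1.00, and 0.93 within the Htr3a line). Klc4 was read in 8 of 33 against 9 of 13 cells. By summed counts Klc4 (-1.54) and Kif13a (-3.14) kept the call, while Kif5c (-0.67), Kif5a (-0.43), Kifc3 (-0.47) and Kif21b (0.67) did not. In cells with 4000 to 10000 genes Kif5a was at -0.53 and Kif5c at -1.45. The part of the number of genes read in these differences was not tested.

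Cajal Retzius cells are early-born reelin-secreting neurons of the cortical surface. Set against the 46 glutamatergic cells, 11 of 34 measured kinesins were higher and 1 lower, beside 34.0% and 7.97% of all genes, and the median was 0.57 for kinesins and 0.51 for all genes. By summed counts the balance was the other way, 2 higher and 10 lower, beside 15.6% and 25.3% of all genes, with medians of -0.07 and -0.10. The median number of genes read was 6714 in Cajal Retzius and 5620.5 in glutamatergic cells, and its part was not tested. Highest by the average of logs were Kif5c (2.50), Kif5b (2.39), Kifc2 (2.37), Kif21a (2.00), Kif5a (1.83) and Kif13a (1.69). None of these 6 was past 2-fold by summed counts, with log2 ratios of 0.28, 0.77, 0.04, 0.35, 0.78 and 0.90 in the same order, and Kif5a was at 0.57 in cells with 4000 to 10000 genes. Kif5c had counts in 12 of 12 against 32 of 46 cells, and by summed counts Cajal Retzius cells were at 393 CPM and glutamatergic cells at 322 CPM. Kif21b was the single lower gene by the average of logs, and was lower by summed counts too: its summed level was 7.59 CPM against 87.4 CPM, 11.5-fold lower, and the difference was -2.48 (1.86 ± 2.30, SD, n = 12 cells, against 4.34 ± 3.38, SD, n = 46 cells). Among the transport partners 12 of 27 dynein and dynactin genes were higher and 0 lower, at a median of 0.83, while by summed counts 3 were higher and 3 lower, at a median of -0.06. Dync1i1 led the 12, at 463 CPM or more in all 12 Cajal Retzius cells (median 1087, highest 3047 CPM) against medians of 349 and 147 CPM in Glutamatergic 1 and 2 cells.

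VZ-derived cells (11) against the same 46 glutamatergic cells gave 4 higher and 4 lower of 34 kinesins, against 11.6% and 14.7% of all genes. Kif5c (2.04), Kif5a (1.30) and Kifc2 (1.26) were higher with a count in at least 50% of the VZ-derived cells, and Kif1b (-1.47), Kif21b (-1.10) and Klc2 (-1.04) lower. By summed counts Klc2 alone of these was past 2-fold (-3.41): Kif5c was at 0.87, Kif5a and Kifc2 at 0.65, Kif1b at -0.91 and Kif21b at -0.73. Kif5a was not past 2-fold within the Htr3a line (0.89), and Kif21b changed sign there (0.18). In cells with 4000 to 10000 genes Kif5a (-0.17), Kifc2 (0.36) and Kif21b (-0.45) were not past 2-fold. These cells and the Cajal Retzius cells were compared with the same glutamatergic cells, so the 2 sets of differences share them.

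**Figure D5:**
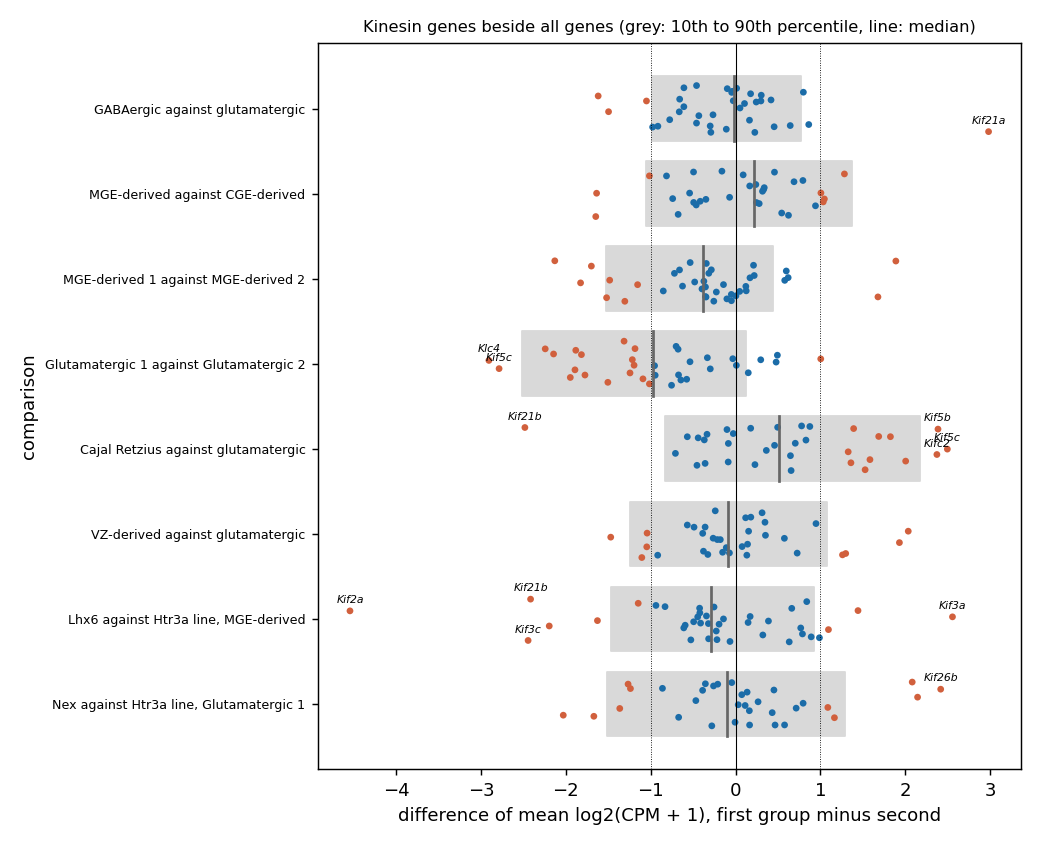
Each point is 1 measured kinesin gene, placed by its difference of mean log2(CPM + 1) (horizontal) in each of the 8 comparisons (vertical); red points are past 2-fold, and grey bands give the 10th to 90th percentile and the median of all measured genes. Most points lie within the grey bands; Kif21a in the first comparison (2.98) and Kif2a between driver lines (-4.54) lie far outside, and the genes farthest out are named.

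The driver lines were compared within type labels. Among MGE-derived cells, 14 of the Lhx6 line and 28 of the Htr3a line, the difference of Kif2a was the largest of any member in any comparison. Kif2a was read in 4 of 14 Lhx6 line cells and in 26 of 28 Htr3a line cells. In MGE-derived 1 cells 1 of 7 Lhx6 line cells had it, at 346 CPM, and 9 of 11 Htr3a line cells did, with a median of 98.8 CPM and a highest of 829 CPM. In MGE-derived 2 cells 3 of 7 Lhx6 line cells had it, with a highest of 477 CPM, and all 17 Htr3a line cells did, from 3.19 to 1604 CPM (median 127 CPM). The lines' ranges overlap in both labels, through the 4 Lhx6 line cells with Kif2a.

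Means of log2(CPM + 1) for Kif2a were 1.97 ± 3.41 (SD, n = 14 cells) and 6.52 ± 2.59 (SD, n = 28 cells). The difference of -4.54 was rank 2 from the lowest of 14147 measured genes. It was -4.47 in cells with 4000 to 10000 genes, -4.75 without the cells with microglial markers and -1.76 by summed counts. In Glutamatergic 1 cells Kif2a was read in 9 of 10 cells of the Nex line and 21 of 23 of the Htr3a line. Any part of Dimt1, which lies on the other strand, was not tested.

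Kif3a stood the other way, read in 13 of 14 Lhx6 line cells at a median of 476 CPM and in 21 of 28 Htr3a line cells at a median of 99.1 CPM (difference 2.56, rank 89 from the highest). It was so in both labels, with medians of 459 against 6.46 CPM in MGE-derived 1 cells and 493 against 197 CPM in MGE-derived 2 cells. Its partner Kif3c was lower in Lhx6 line cells (-2.44), in 1 of 7 against 14 of 17 MGE-derived 2 cells but in 6 of 7 against 11 of 11 MGE-derived 1 cells. The other partner, Kif3b, was read in 0 of 14 Lhx6 line cells, which by counting error alone allows a share of up to 21.4% of such cells with a read, and in 12 of 28 Htr3a line cells. This was not particular to Kif3b. Kif13a, Kif14, Kif16b, Kif17, Kif18b, Kif19a, Kif1c, Kif24, Kif26a, Kif2c and Kif7 also had no count in these 14 cells. In all 3 of 39 measured kinesins were higher and 6 lower, against 9.01% and 20% of all genes; Kif21b (-2.42), Kif1a (-1.63) and Kif5b (-1.15) were among the lower ones. By summed counts Kif3a (1.22) and Kif21b (-1.45) were past 2-fold, and Kif3c (-0.87), Kif1a (-0.41) and Kif5b (-0.08) were not. All 9 microglial markers were lower in Lhx6 line cells (median -1.87) and 3 of 4 erythrocyte markers higher (median 1.34). None of the 14 Lhx6 line cells but 6 of the 28 Htr3a line cells were among those with microglial markers; without these, 8 of 24 kinesins were higher and 5 lower, beside 18.6% and 14.6% of all genes, and Kif5b was no longer past 2-fold (-0.37). The median number of genes read was 4581.5 in Lhx6 line cells and 5493.5 in Htr3a line cells, and its part in these values was not tested.

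Among Glutamatergic 1 cells, 10 of the Nex line and 23 of the Htr3a line, 5 of 33 kinesins were higher and 5 lower in Nex line cells, against 14.3% and 19.1% of all genes. Kif21a was higher there as well (2.14): it was read in 7 of 10 Nex line cells at a median of 44.4 CPM and in 15 of 23 Htr3a line cells at a median of 0.628 CPM. Kif20a (2.08, uncertain as above), Kif5c (1.17) and Kif21b (1.09) were also higher, and Kif1b (-2.03), Kif5a (-1.67), Klc2 (-1.27) and Kif3a (-1.24) lower. Kif1b was at a median of 47.6 CPM in Nex line and 288 CPM in Htr3a line cells. By summed counts Kif21a (1.58), Kif20a (2.49) and Klc2 (-3.78) were past 2-fold, and Kif5c (0.30), Kif21b (0.16), Kif1b (-0.76), Kif5a (-0.06) and Kif3a (-0.81) were not. In cells with 4000 to 10000 genes Kif1b (-0.05), Kif5a (-0.07), Kif20a (0.84) and Kif21b (0.97) were not. All 4 erythrocyte markers were lower in Nex line cells (median -2.44), as was Csf1r of 8 microglial markers, and the part of this RNA was not tested.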

How the data were processed

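The authors deposited raw counts (whole reads of each gene in each cell) and, for the passed cells, normalized signal values. Build GRCm38, STAR, featureCounts and Trimmomatic are named per the submitters' processing notes, with versions, strand setting and normalization not given in the sources used here. Of the 2313 kinesin values above 0 among them, 100% lay within 0.1% of the deposited counts divided by 1 factor per cell. A second count table by symbol was not used here. The count table held 22880 Ensembl identifiers, of which 22570 had a GENCODE M21 symbol; 0 columns belonged to no sample, and no 2 cells had identical counts. Groups come from the submitters' type, line and quality labels.

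Counts were divided by the cell total (CPM). A difference is that between 2 groups' average log2(CPM + 1), with a pseudocount of 1 CPM; CPM of a group is from summed counts. Exon lengths are from GENCODE. With 1 sample per group no test was made, and the part of depth in the differences was not tested. Members and gene lists were chosen with earlier results of these data known. Genes named are members with a count in at least 50% of the cells and 20 CPM in a label, up to 6 called members per direction and comparison read in 50% or more of the higher group's cells, dividing-cell kinesins in at least 25% of VZ-derived cells, and up to 3 called members of each other list; other names were chosen after their values were seen. Alternatives were another pseudocount, filters, the normalized values, summed counts and subsets of cells. Scripts were tested on simulated data. Python 3.11.15, numpy 2.4.6, pandas 2.3.3, scipy 1.17.1 and matplotlib 3.10.9 were used.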

Additional observations from a re-analysis of the deposited data

Results flagged for a closer look

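Among the 4 cells labelled GABAergic, cell 2 stood far above the others for Kif13a (4.86), Kif3b (4.92) and Kifc3 (5.89 on the log2(CPM + 1) scale), while the other cells had a median of 0. That cell held counts in 11566 genes, against 3163 to 6109 in the others, and had microglial markers; their part was not tested. In the 10 Glutamatergic 1 cells of the Nex line, cell 30 was far above the others for Klc2 at 1.13, beside a median of 0. That value is on the same log2(CPM + 1) scale and is a low level, near the pseudocount of 1 CPM. Of 25 values examined, chance marks about 1 in 20 where values follow a normal distribution, a rate that does not hold where the other cells are all at 0, as for the first 3 genes.

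MGE-derived 1 minus MGE-derived 2 had opposite signs in the 2 lines for 3 of 17 genes compared. The difference was -2.34 in the Htr3a and 2.81 in the Lhx6 line for Kif1a, -2.20 and 1.49 for Kif21b, and -2.58 and 1.42 for Kif5b. Whether the lines differ was not tested.

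The 14 cells that failed quality control, with 122 to 13277123 counts, were outside all comparisons. Over them, 25 kinesin genes had more than 3 counts, and a cell had counts of 0 to 18 kinesin genes (median 6.5).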

How the results depend on the processing

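Counts of kinesin genes past 2-fold depended on the scale. For GABAergic against glutamatergic cells 4 became 2 with a pseudocount of 10 CPM, 8 with the normalized values, 13 with summed counts, 8 in cells of 4000 to 10000 genes and 8 in the Htr3a line. For MGE-derived against CGE-derived cells 7 became 2, 11, 15 and 13 under the first 4 of these. With the pseudocount of 10 CPM, 9 became 3 for MGE-derived 1 against 2, 18 became 6 for Glutamatergic 1 against 2, 8 became 2 for VZ-derived cells (5 in the Htr3a line) and 10 became 5 for the Nex line. With summed counts those of MGE-derived 1 against 2, VZ-derived cells, the Lhx6 line and the Nex line became 15, 13, 21 and 17. Of all genes, summed counts called 1997 higher and 3487 lower of 13837 for MGE-derived 1 against 2, and 1747 and 3480 of 12256 for VZ-derived cells. For the Lhx6 line they called 2481 and 4122 of 14147, and for the Nex line 2704 and 3833 of 12508. For MGE-derived against CGE-derived cells they called 4127 and 1779 of 12753. The kinesin counts are not read as results about the family. The share of all genes called moved too, for the first comparison from 15.8% to 4.55% and 31.1% with the pseudocount and summed counts. The other 65 counts stayed within 1.5 times, but a total can hide its split: for Cajal Retzius cells 12 stayed 12 with summed counts while 11 higher and 1 lower became 2 higher and 10 lower, and 1 and 3 became 8 and 5 for GABAergic cells. Without cells with microglial markers 3 higher and 6 lower became 8 and 5 for the Lhx6 line.

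Of 51 named differences past 2-fold, 38 were under it with summed counts, 24 with the pseudocount of 10 CPM, 13 in cells of 4000 to 10000 genes, 5 without cells with microglial markers and 4 without the highest cell, and 9 of 36 in the Htr3a line; all 51 stayed past it with the normalized values. Of these, 6 values changed sign: Kif5a (0.20) and Kif3a (0.35) with summed counts and Kif5b (0.50) in cells of 4000 to 10000 genes for MGE-derived 1 against 2, Kif20a (0.066) with summed counts for Glutamatergic 1 against 2, and, for VZ-derived cells, Kif5a (-0.17) in cells of 4000 to 10000 genes and Kif21b (0.18) in the Htr3a line. The causes were not tested. Kif21a kept a difference of 1.69 to 3.57 between GABAergic and glutamatergic cells, and Kif2a of -6.0 to -1.76 between the Lhx6 and Htr3a lines, under all alternatives run. No paired analysis was possible because no label pairs cells across groups.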
